A study of Mus musculus with 14 samples.

Results

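Microglial genes, 9 in number, were followed in the striatum of R6/2 mice at 6 weeks of age: the complement genes C1qa, C1qb and C1qc, the receptors Csf1r and Cx3cr1, the adaptor Tyrobp, the lysosomal genes Ctss and Cd68, and the cytoskeletal gene Aif1. They were taken by symbol from the array's annotation, and all 9 of 9 were present, through 14 of the 22626 probe sets tested and among 12393 named genes. The tested animals were R6/2 mice, a model of Huntington disease whose transgene holds the first exon of human HTT, with a long CAG repeat, under the human promoter. They were set against wild-type mice, and both genotypes were on a CBAxC57BL/6 background. Every animal had received normal saline 30 to 60 minutes before it was killed, as the control arm of drug studies. The start of the sample titles split the arrays into 2 cohorts: M.C held 4 R6/2 and 4 wild-type arrays, and Mith held 3 R6/2 and 3 wild-type arrays. Whether each array stands for its own animal is not in the labels, and the sexes are not either, so the p-values rest on spread among arrays that may be in part technical. Replicates 1 to 4 of each genotype are M.C arrays and replicates 5 to 7 are Mith arrays.

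Microglia are the resident macrophages of the brain. They depend on signals through Csf1r, sense the neuronal chemokine Cx3cl1 through Cx3cr1, and pass signals from several surface receptors through the adaptor Tyrobp. They are also the main source of C1q in the brain, the protein that starts the classical complement pathway and that can tag synapses for removal. Activated microglia usually carry more Cd68, Aif1, C1q and cathepsins, and the comparison asked whether R6/2 striatum showed this at 6 weeks.

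No member was called higher in R6/2 striatum. Over both cohorts, 0 of 14 member probe sets passed in limma's moderated test with Benjamini-Hochberg adjustment over all probe sets, where 2.55% of all probe sets were called (2.19% lower and 0.362% higher). An unadjusted p under 0.05 was reached by 5 of 14 (35.7%), 4 lower and 1 higher in R6/2, against 15.2% of all probe sets. The changes ran from -0.30 to 0.18 on the log2 scale, with a median of -0.01 where that of all probe sets was 0.01. The upper ends of the 14 intervals (95%) over both cohorts reached at most 0.32, so that none of them held a rise of 0.5 log2 units. In Mith alone 13 of 14 ended below 0.5, and that of Tyrobp ran from 0.08 to 0.55.

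The signal was a log2 probe set value centred on a common array median, and a change is R6/2 minus wild-type over 7 arrays per genotype, ± SE, from a fit that also held the cohort, unless a cohort is named. In bulk tissue, fewer cells of a type and less RNA per cell cannot be told apart. Striatal tissue was present by 2 of its markers, since Penk averaged 11.44 and Ppp1r1b 10.29 over the 14 arrays. Neighbouring tissue varied among arrays. With each gene set to 0 at its mean over arrays, the mean of thalamic markers ran from -0.44 to 0.97. That of choroid plexus markers ran from -1.17 to 0.80. The arrays parted by cohort on a first component with 43.1% of the variance, and R6/2 replicate 4 had the lowest mean Spearman correlation with its cohort, 0.981, where the others lay between 0.986 and 0.992. A sign of RNA quality moved with genotype: the gap between the 3′ and 5′ Actb control probe sets (3′ minus 5′), which is larger in shortened RNA, was 0.61 ± 0.18 in R6/2 and 0.37 ± 0.14 in wild-type (SD, n = 7 each). With that difference as a covariate no member was called either, and the values of the members it moved most are given below.

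**Figure D1:**
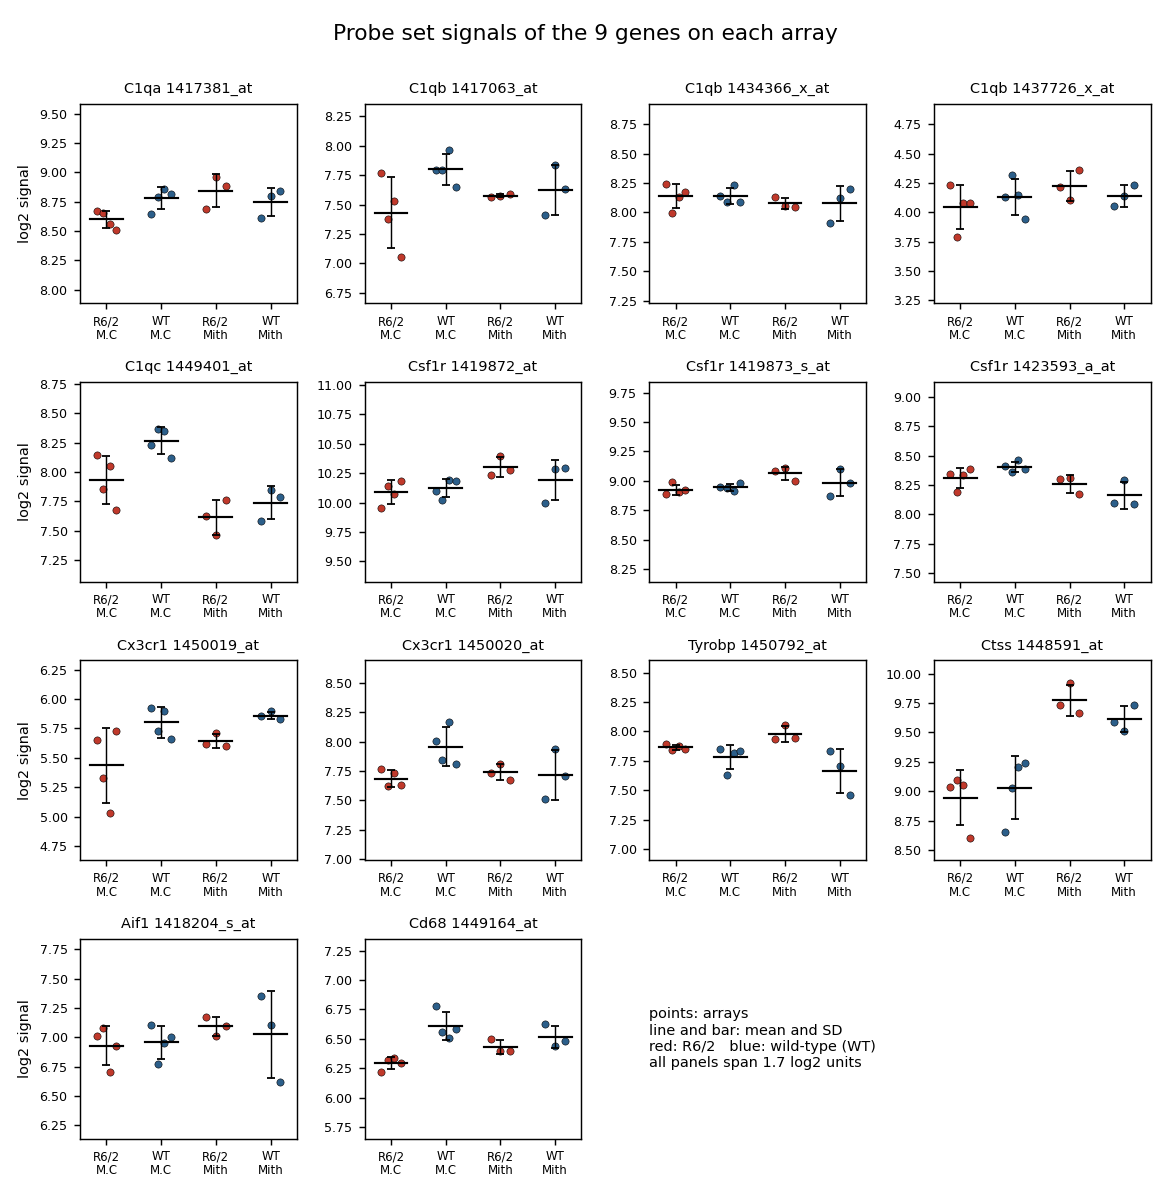
Log2 signals of the 14 member probe sets on each array, by genotype and cohort; points are arrays, lines and bars the mean and SD, and every panel spans the same range. Over both cohorts the genotypes overlap in every panel, while Ctss and C1qc differ between cohorts, Ctss by -0.70 and C1qc by 0.42 (M.C minus Mith).

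The 3 C1q chains are encoded side by side on mouse chromosome 4. C1qb lies at chr4:136880126-136886200, C1qc at chr4:136889801-136892936 and C1qa at chr4:136895916-136898844 (GRCm38.p6, RefSeq), so that 3600 bases part C1qb from C1qc and 2979 part C1qc from C1qa. The 250 bases before the start that the RefSeq promoter table uses for C1qb and C1qc are shown because these genes followed each other most closely across arrays, by the probe sets that stand for them, as described below. Capitals mark ACTTCCT, which is AGGAAGT read on the other strand, letters found at many sites of ETS factors such as PU.1, the myeloid factor encoded by Spi1.
C1qb, chr4:136886201-136886450, minus strand, GRCm38.p6: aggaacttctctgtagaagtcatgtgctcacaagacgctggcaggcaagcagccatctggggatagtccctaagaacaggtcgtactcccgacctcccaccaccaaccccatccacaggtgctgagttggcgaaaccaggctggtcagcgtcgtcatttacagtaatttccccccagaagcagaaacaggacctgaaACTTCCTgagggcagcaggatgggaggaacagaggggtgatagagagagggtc
C1qc, chr4:136892915-136893164, minus strand, GRCm38.p6: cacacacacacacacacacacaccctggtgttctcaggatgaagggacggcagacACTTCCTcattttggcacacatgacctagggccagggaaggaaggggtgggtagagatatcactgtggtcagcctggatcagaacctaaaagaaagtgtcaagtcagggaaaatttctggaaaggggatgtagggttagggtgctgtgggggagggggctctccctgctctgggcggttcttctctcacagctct

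The match began 53 bases before that start in C1qb and 195 bases before it in C1qc. For C1qc the start of the window is not the outer end of the gene span given above: 22 bases of the window lie inside that span, and 0 do for C1qb. RefSeq windows were at hand for 6 of the members, C1qb, C1qc, Cx3cr1, Ctss, Aif1 and Cd68, and AGGAAGT on either strand was in 2 of these 6 and in 7.69% of all 32851 windows of that length. The motif was chosen after the values had been seen, and a match is a description of letters only. Spi1 itself was at 0.03 ± 0.06 (limma adjusted p = 0.852).

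C1qc, the C chain of C1q, was lower in R6/2 without passing the test. Its signals in M.C were 8.14, 7.86, 8.05 and 7.68 in R6/2 and 8.23, 8.37, 8.35 and 8.12 in wild-type; in Mith they were 7.63, 7.46 and 7.76 in R6/2 and 7.58, 7.85 and 7.79 in wild-type. The genotypes overlapped in both cohorts, by R6/2 replicate 1 in M.C. The change was -0.24 ± 0.08 (interval -0.41 to -0.08, 84.5% of the wild-type signal, limma adjusted p = 0.128). It was -0.33 ± 0.10 in M.C and -0.12 ± 0.11 in Mith.

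C1qb, the B chain, was measured by 3 probe sets that did not move alike. Probe set 1417063_at had 7.77, 7.38, 7.53 and 7.05 in R6/2 and 7.79, 7.79, 7.97 and 7.65 in wild-type in M.C, and 7.56, 7.58 and 7.59 in R6/2 against 7.41, 7.84 and 7.63 in wild-type in Mith. R6/2 replicate 4 was the lowest of all arrays here, and R6/2 replicate 1 lay within the wild-type range. The change was -0.23 ± 0.10 (interval -0.44 to -0.02, adjusted p = 0.274). The cohorts gave -0.37 (M.C) and -0.05 (Mith). Without R6/2 replicate 4 the value was -0.24 in M.C and -0.15 over both cohorts. Probe set 1434366_x_at gave -0.00 ± 0.06 (interval -0.12 to 0.12), its sign turning with the scaling, and ran from 7.996 to 8.24 in R6/2 and from 7.91 to 8.23 in wild-type. The third, 1437726_x_at, averaged 4.12 in R6/2 and 4.14 in wild-type, within the range of bacterial control probe sets (means of 3.44 to 4.65), so it was not well above background and carries no direction. Both probe sets named _x_at may take up signal from other transcripts.

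C1qa, the A chain, was close in the genotypes. It ran from 8.51 to 8.96 in R6/2 with a median of 8.67, and from 8.61 to 8.86 in wild-type with a median of 8.80. The change was -0.06 ± 0.07 (interval -0.20 to 0.08, adjusted p = 0.713). The cohorts leaned opposite ways, -0.18 ± 0.07 in M.C and 0.09 ± 0.10 in Mith. The interaction of genotype with cohort was -0.27 ± 0.12 for this gene (adjusted p = 0.482), and 0 of 14 member probe sets and 0% of all probe sets were called for it. At an unadjusted p under 0.05 the interaction held for 1 of 14 member probe sets, C1qa, and for 9.78% of all.

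The receptors differed from each other. Csf1r, the receptor tyrosine kinase for Csf1 and Il34 on which microglial survival rests, was even in R6/2 and wild-type through all 3 of its probe sets. Probe set 1419872_at ran from 9.95 to 10.40 (median 10.19) in R6/2 and from 9.99 to 10.30 (median 10.18) in wild-type, with a change of 0.03 ± 0.06 (interval -0.10 to 0.16). The other two gave 0.02 ± 0.05 (1419873_s_at) and -0.01 ± 0.06 (1423593_a_at), and 1423593_a_at turned to 0.02 after quantile normalization. Over both cohorts no interval of Csf1r held a change of 0.2 in either direction. Within cohorts the 3 probe sets, in the same order, were at -0.03, -0.02 and -0.09 in M.C and at 0.11, 0.08 and 0.10 in Mith. These intervals were wider, with lower ends down to -0.24 in M.C (1423593_a_at) and upper ends of 0.34, 0.28 and 0.30 in Mith.

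Cx3cr1, the receptor for Cx3cl1, was lower in R6/2 through both of its probe sets, and neither passed. Probe set 1450019_at had 5.65, 5.33, 5.03 and 5.73 in R6/2 and 5.92, 5.73, 5.90 and 5.66 in wild-type in M.C, and 5.62, 5.71 and 5.599 in R6/2 against 5.86, 5.89 and 5.83 in wild-type in Mith. Every Mith R6/2 array lay below every Mith wild-type array, whereas the M.C arrays overlapped. The change was -0.30 ± 0.09 (interval -0.49 to -0.12, 81.0% of wild-type, adjusted p = 0.0829), -0.37 in M.C and -0.22 in Mith.

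Probe set 1450020_at of Cx3cr1 had 7.76, 7.62, 7.73 and 7.63 in R6/2 and 8.01, 7.84, 8.17 and 7.81 in wild-type in M.C, without overlap, while the Mith arrays overlapped at 7.74, 7.81 and 7.67 in R6/2 and 7.51, 7.93 and 7.71 in wild-type. Its change was -0.15 ± 0.08 (interval -0.31 to 0.02, adjusted p = 0.400), -0.27 in M.C and 0.02 in Mith. Probe set 1450019_at passed without R6/2 replicate 4 (-0.35, limma adjusted p = 0.0318) and in none of the other 13 fits with 1 array left out. Its M.C value was -0.23 without R6/2 replicate 3, the lowest array.

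Tyrobp, the adaptor through which Trem2 and other receptors signal, was the one member whose unadjusted p passed on the high side. In Mith it stood at 7.93, 8.05 and 7.94 in R6/2 and 7.83, 7.71 and 7.46 in wild-type, without overlap. In M.C it was at 7.89, 7.85, 7.88 and 7.85 in R6/2 and 7.85, 7.63, 7.82 and 7.84 in wild-type, with the R6/2 arrays packed at the top of the wild-type range. The change was 0.18 ± 0.06 (interval 0.04 to 0.32, adjusted p = 0.167), 0.08 in M.C and 0.31 in Mith (interval 0.08 to 0.55). It was 0.10 with the Actb covariate (adjusted p = 0.663). Trem2, its partner receptor, was at -0.04 ± 0.05.

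Cd68, a glycoprotein of late endosomes and lysosomes in phagocytes, was the only member called in a cohort, and it was lower in R6/2. In M.C it had 6.22, 6.32, 6.34 and 6.30 in R6/2 and 6.78, 6.56, 6.51 and 6.58 in wild-type, every R6/2 array below every wild-type array. In Mith it had 6.495, 6.4 and 6.396 in R6/2 and 6.62, 6.44 and 6.48 in wild-type, with overlap. It fell in M.C by 0.31 ± 0.07 (interval -0.47 to -0.15, limma adjusted p = 0.0478), as 1 of 14 member probe sets (7.14%) where 2.31% of all probe sets were called lower and 2.47% called at all. This call lay near the threshold: it held without R6/2 replicate 4 (adjusted p = 0.0419) and was lost when any of the other 7 M.C arrays was left out, with adjusted p up to 0.143, and on the values as deposited (-0.28, adjusted p = 0.0800). Over both cohorts Cd68 was at -0.22 ± 0.06 (interval -0.34 to -0.09, 86.1% of wild-type, adjusted p = 0.0635), and in Mith it was at -0.09 ± 0.09.

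Ctss, cathepsin S, a lysosomal protease of microglia and macrophages, was even between the genotypes and differed between the cohorts. In M.C it had 9.03, 9.09, 9.05 and 8.60 in R6/2 and 8.65, 9.03, 9.203 and 9.24 in wild-type. In Mith it had 9.73, 9.92 and 9.67 in R6/2 and 9.59, 9.51 and 9.73 in wild-type. The genotypes overlapped in both cohorts, and every Mith array lay above every M.C array, a separation that 8.98% of all probe sets showed in one direction or the other. The genotype change was 0.02 ± 0.10 (interval -0.19 to 0.23, adjusted p = 0.948).

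Aif1, which encodes the calcium-binding microglial marker Iba1, varied among arrays more than it did between genotypes. It ran from 6.70 to 7.18 in R6/2 (median 7.01) and from 6.62 to 7.35 in wild-type (median 7.005), and its highest and lowest arrays were wild-type replicates 5 and 7. The change was 0.01 ± 0.09 (interval -0.19 to 0.21, adjusted p = 0.969), and it moved to -0.17 with the Actb covariate (adjusted p = 0.531). After genotype and cohort were taken out, Aif1 correlated with the Actb difference at r = 0.65 and rho = 0.72 over the 14 arrays; whether RNA quality has a part in its values was not tested further.

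**Figure D2:**
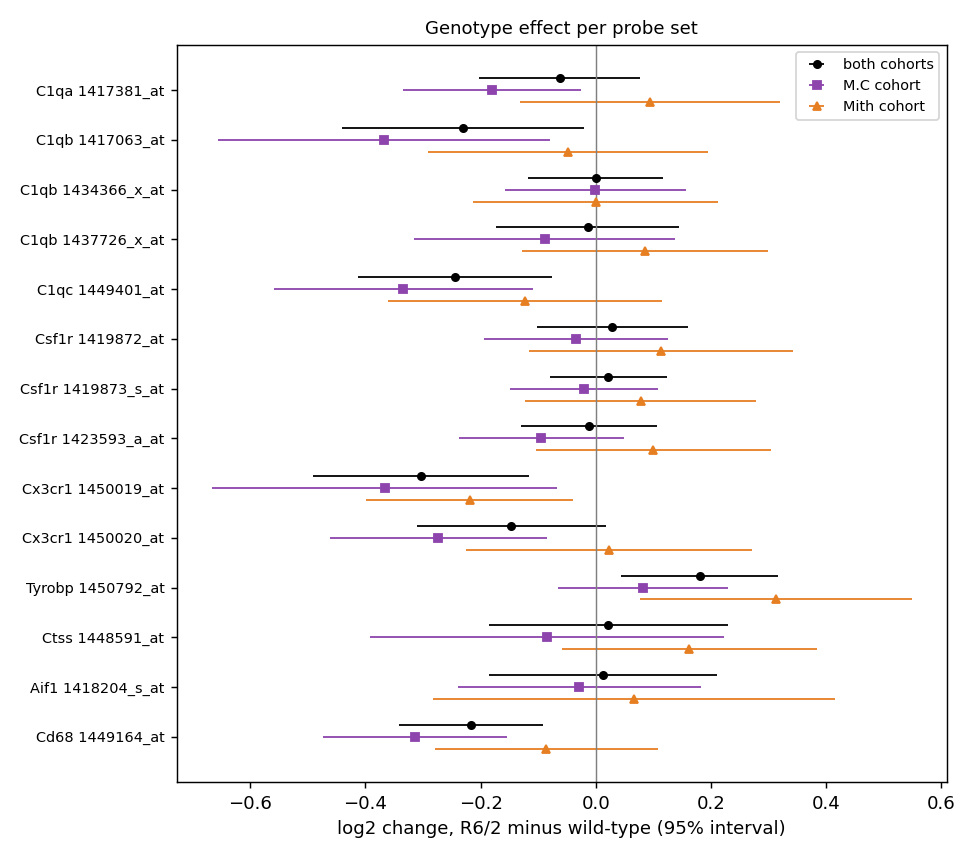
Log2 change (R6/2 minus wild-type) with its 95% interval for each member probe set, over both cohorts, in M.C and in Mith. The M.C estimate lies below the Mith estimate for each of the 14 probe sets, which stand for 9 genes, as it does for 50.32% of all probe sets. For C1qb 1434366_x_at the difference is -0.0011. With 1 array left out it reached 0.08 for that probe set and 0.11 for Aif1. No difference between cohorts was called, and only Cd68 in M.C was called, at -0.31.

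Within cohorts the members leaned apart. In M.C 13 of 14 member probe sets had a change below 0, as 46.95% of all probe sets did. Their median was -0.09 where all probe sets had 0.01. In Mith 10 of 14 were above 0 and 4 below, where 49.6% of all probe sets were below. Their median was 0.07 where all probe sets had 0.00, and none was called, as was true of all probe sets (0%). The 14 probe sets stand for 9 genes. With 1 probe set per gene, 8 of 9 genes were below 0 in M.C and 6 of 9 above 0 in Mith. At an unadjusted p under 0.05 there were 6 of 14 in M.C, all lower, against 16.7% of all probe sets, and 2 of 14 in Mith, Cx3cr1 1450019_at lower and Tyrobp higher, against 8.87% of all. Genotypes did not overlap for 2 of 14 in M.C (14.3%, all probe sets 11.2%), for 2 of 14 in Mith (14.3%, all probe sets 12.9%) and for 0 of 14 over both cohorts (all probe sets 0.486%). The shares without overlap stood close to those of the whole array, and no difference between the cohorts passed the interaction test.

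The members did not share a cohort shift. Between the cohorts, with genotype as a term, 2 of 14 member probe sets were called (14.3%) where 32.3% of all were, and they went opposite ways. Ctss fell in M.C relative to Mith by 0.70 ± 0.10 (adjusted p = 7.26e-05), and C1qc rose by 0.42 ± 0.08 (adjusted p = 8.78e-04). Both calls held with each array left out in turn. Csf1r probe sets disagreed, with -0.14 ± 0.06 for 1419872_at, -0.09 ± 0.05 for 1419873_s_at and 0.15 ± 0.06 for 1423593_a_at, none of them called. After quantile normalization 1419872_at turned to 0.05 and 1423593_a_at was called at 0.18 (adjusted p = 0.0202), as it was on the values as deposited (0.17, adjusted p = 0.0286) and in 4 of 14 fits with 1 array left out. Probe set 1419872_at was called without wild-type replicate 5 (-0.19, adjusted p = 0.0167). Myelin markers moved with the cohort too: all 9 measured oligodendrocyte markers fell in M.C relative to Mith, with a median of -0.81, and 5 of 7 thalamic markers did, with a median of -0.94. Their part in the shifts of Ctss and C1qc was not tested.

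**Figure D3:**
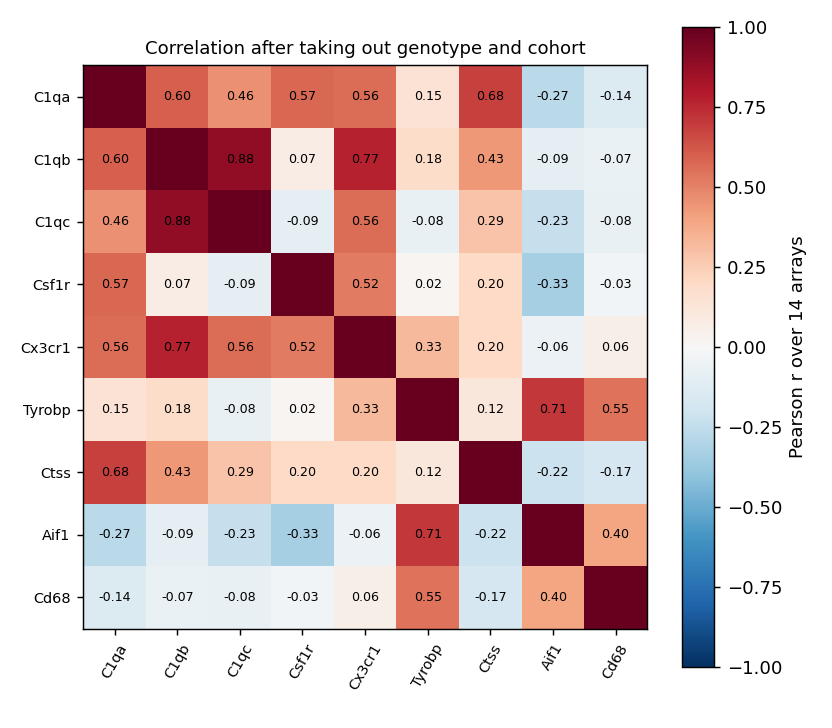
Pearson correlation over 14 arrays between the 9 genes (1 probe set each) after genotype and cohort means were taken out; red is positive and blue negative. C1qb and C1qc stand at 0.88 and the median of the 36 pairs is 0.16.

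Across arrays the genes fell into loose pairings. With genotype and cohort taken out, the 36 pairs of genes had a median r of 0.16, from -0.33 to 0.88, and 10 were above 0.5. C1qb (1417063_at) and C1qc, the neighbours whose upstream sequences are printed above, had the highest value (r = 0.88, rho = 0.81, and r = 0.72 without the 2 arrays farthest from the median of C1qb). The value depended on the probe set of C1qb. With C1qc, 1434366_x_at had r = 0.41 and rho = 0.33, and r = 0.07 without 2 arrays. The near-background 1437726_x_at had r = 0.70 and rho = 0.81. C1qb (1417063_at) with Cx3cr1 (1450020_at) had r = 0.77 and rho = 0.83. With the other Cx3cr1 probe set, 1450019_at, it had r = 0.03 and rho = 0.39, and the 2 Cx3cr1 probe sets had r = 0.30 with each other. Tyrobp with Aif1 had r = 0.71 and rho = 0.47, and C1qa with Ctss r = 0.68 and rho = 0.64. These values describe 14 arrays that share dissection, RNA quality and scaling, and carry no p.

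The genes whose residual pattern was most like the mean of the 3 C1q genes were Mea1 (r = 0.89, rho = 0.70), Cpeb3 (r = 0.87, rho = 0.81), Osbpl9, 2510039O18Rik, Uqcc2, Kcnh1, Ddx49 and Fgl2 (r = 0.85, rho = 0.71). Fgl2 had a mean signal of 4.0, within the range of the bacterial controls, and so was not well above background. Without R6/2 replicate 4 and wild-type replicate 5, the arrays farthest from the median, their r ran from 0.51 to 0.72. Those most like the mean of the other 6 members were Hspb8 (r = 0.90, rho = 0.90), Tmem115, Traip, Nsun4, Babam2, Foxd1, Map2k1 and Kpna1 (r = 0.84, rho = 0.85), with r from 0.78 to 0.94 without wild-type replicates 3 and 7. None of these 16 genes belongs to a microglial list used here.

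Few further microglial genes passed the test. Of 24 measured genes of homeostatic microglia 0 were called, with a median change of -0.00 where all genes had 0.01, and 1 had an unadjusted p under 0.05. The smallest p-values were those of Rgs10, a regulator of G protein signalling (-0.21 ± 0.09), Gpr34, a lipid receptor (0.15 ± 0.07, mean signal 4.63 and so not well above background), and Lgmn, a lysosomal protease (-0.16 ± 0.10). Of 28 genes of activated microglia 1 fell and 0 rose, with a median of 0.01, where 2.55% of all probe sets were called. Apoe, the lipid carrier that astrocytes also make in quantity, fell to 79.6% of wild-type (-0.33 ± 0.08, adjusted p = 0.0343), but lost its call with the Actb covariate (-0.36, adjusted p = 0.180) with trended and robust variances (adjusted p = 0.0635), with no cohort term (adjusted p = 0.123) and in 7 of 14 fits with 1 array left out. These last were the fits without R6/2 replicates 1, 3 and 7 and those without wild-type replicates 1, 3, 4 and 7.

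Downstream of C1q, 0 of 15 measured genes of the C1 complex and later complement were called, with a median of -0.01. Clu, a chaperone that restrains the terminal complement complex, was at -0.34 ± 0.12 (adjusted p = 0.153). It was called with array weights (limma adjusted p = 0.0394) and in 1 of 14 fits with 1 array left out (0.0446). C3ar1, the receptor for the C3a fragment, was at 0.11 ± 0.06, and C1s1, a protease of the C1 complex, at 0.08 ± 0.05. Of 20 inflammatory mediators 0 were called, with a median of 0.03, and the smallest p-values were those of Socs3, an inhibitor of cytokine signalling (0.19 ± 0.06, adjusted p = 0.125), Ptgs2, a prostaglandin synthase (0.16 ± 0.08), and Cxcl10, an interferon-induced chemokine (0.11 ± 0.06). Socs3 was called in 1 of 14 fits with 1 array left out, that without wild-type replicate 5 (limma adjusted p = 0.0394). In M.C 15 of the 20 were above 0 and 5 below, where 46.95% of all probe sets were below. An unadjusted p under 0.05 was reached there by 4 higher genes and 1 lower gene of the 20, against 16.7% of all probe sets. None of the 20 was called. The mean over the list, each gene set to 0 at its mean over arrays, lay between 0.01 and 0.07 in R6/2 and between -0.05 and -0.00 in wild-type in M.C, without overlap, and between -0.04 and 0.03 in R6/2 and between -0.09 and 0.02 in wild-type in Mith. This lack of overlap in M.C was not particular to the list. The mean of the member genes lay there between -0.23 and -0.04 in R6/2 and between 0.00 and 0.14 in wild-type. Means of astrocyte, oligodendrocyte and projection neuron markers were likewise apart, lower in R6/2. Those of perivascular macrophage and of neutrophil and lymphocyte markers were apart too, higher in R6/2, and those of the remaining lists overlapped. Of 14 lysosomal genes 0 were called, with a median of -0.06, and Npc1, a cholesterol transporter, was at -0.15 ± 0.06, Tpp1, a peptidase, at -0.07 ± 0.05 and Cd164, a sialomucin, at -0.14 ± 0.11.

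Signals that other cells send to microglia changed in part. Of 11 genes measured 2 fell and 0 rose, with a median of -0.01, where 2.55% of all probe sets were called. Cx3cl1, the membrane-bound chemokine of neurons and ligand of Cx3cr1, had 10.06, 9.82, 10.18 and 9.99 in R6/2 and 10.90, 10.73, 10.81 and 10.80 in wild-type in M.C, and 10.17, 10.34 and 9.98 in R6/2 against 10.07, 10.80 and 10.82 in wild-type in Mith. Wild-type replicate 5 lay within the R6/2 range, and all other wild-type arrays lay above it.

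Cx3cl1 fell to 64.7% of wild-type (-0.63 ± 0.11, interval -0.86 to -0.39, adjusted p = 0.00587), and its 3 probe sets ran from -0.63 to -0.19. Within cohorts it was at -0.80 (M.C) and -0.40 (Mith). It was called in all 14 fits with 1 array left out, and lost its call with the Actb covariate (-0.47, adjusted p = 0.173). Cd47, a signal that holds back phagocytosis, fell to 83.7% (-0.26 ± 0.06, adjusted p = 0.0372), its 4 probe sets running from -0.26 to 0.02. The call of Cd47 held in 5 of 14 fits with 1 array left out, those without R6/2 replicates 2, 4 and 5 and without wild-type replicates 5 and 6, and was lost with the Actb covariate (-0.26, adjusted p = 0.227). It was also lost with trended and robust variances (adjusted p = 0.0665), with no cohort term (adjusted p = 0.0970) and with its probe sets averaged, where the value was -0.16 (adjusted p = 0.0722).

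Sirpa, the receptor for Cd47, was at -0.19 ± 0.08, and did not pass. The ligands of Csf1r were at -0.05 ± 0.07 for Csf1 and -0.01 ± 0.07 for Il34. For Csf1 the cohorts went opposite ways, uncalled: 0.10 ± 0.06 in M.C, where every R6/2 array (7.88 to 7.90) lay above every wild-type array (7.75 to 7.82), and -0.25 ± 0.10 in Mith, where the genotypes overlapped (interaction adjusted p = 0.355). Of all probe sets, 11.2% had no overlap in M.C, in one direction or the other. Cd200 and its receptor Cd200r1, a further inhibitory pair, were at 0.21 ± 0.07 (adjusted p = 0.137) and 0.20 ± 0.07 (adjusted p = 0.133). Striatal projection neuron markers, of cells that bear such signals, were mostly lower in R6/2 too. Of 8 measured, 7 were below 0 and 1 above it, at 0.07, with a median of -0.59. Called lower were 5 (Ppp1r1b, Penk, Drd2, Rgs9 and Pde10a), where 2.55% of all probe sets were called. With the Actb covariate Penk kept its call (adjusted p = 0.0372) and the other 4 lost theirs: Ppp1r1b (adjusted p = 0.137), Drd2 (0.228), Rgs9 (0.149) and Pde10a (0.225, at -0.49 where the fit without it gave -0.92). With no cohort term Drd2 (0.168) and Rgs9 (0.0690) lost theirs. Their mean lay between -0.49 and -0.17 in R6/2 and between 0.41 and 0.49 in wild-type in M.C, and between -0.30 and -0.08 in R6/2 and between -0.20 and 0.26 in wild-type in Mith, where wild-type replicate 5 was the lowest wild-type array for Cx3cl1. The part of these neurons in the values was not tested.

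**Figure D4:**
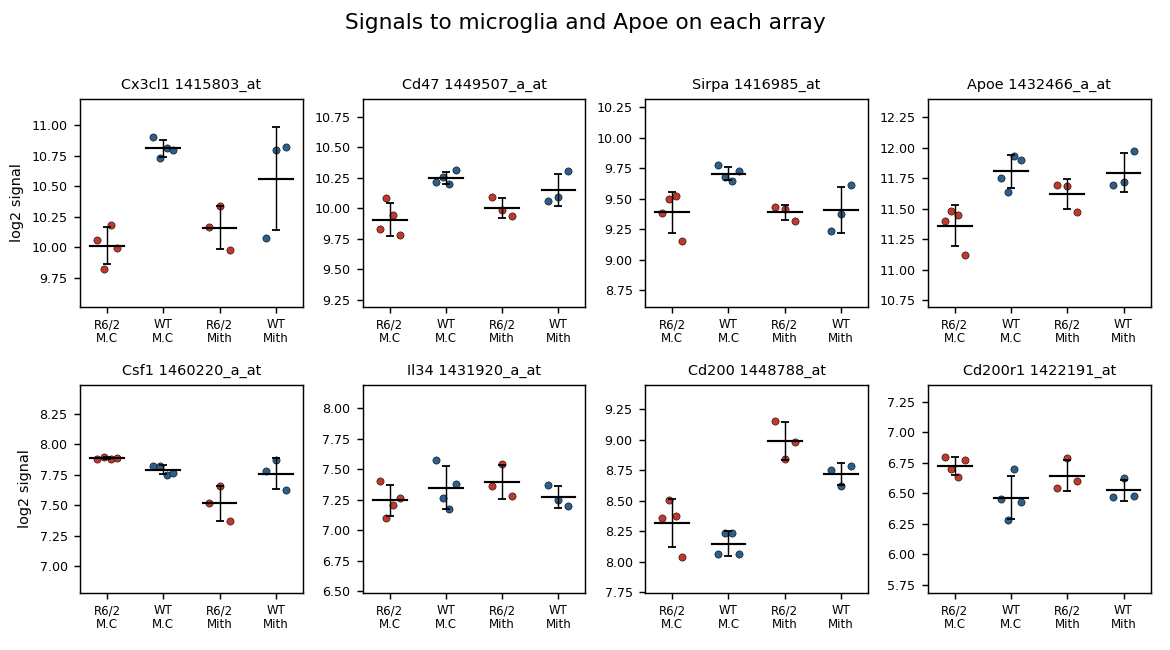
Log2 signals of ligands and receptors that act on microglia, and of Apoe, on each array by genotype and cohort; points are arrays, lines and bars the mean and SD. In M.C the R6/2 arrays of Cx3cl1 lie between 9.82 and 10.18, below the wild-type arrays at 10.73 to 10.90.

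Markers of other cells that could share the members' transcripts gave no call. Of 9 markers of perivascular macrophages and monocytes 0 were called, with a median of 0.02, and the smallest p-values were those of Ccr2, Stab1 and Mrc1. Their mean over the list lay between 0.05 and 0.09 in R6/2 and between -0.03 and 0.03 in wild-type in M.C, and between -0.10 and -0.04 in R6/2 and between -0.12 and 0.03 in wild-type in Mith. Of 12 neutrophil and lymphocyte markers 0 were called, with a median of 0.06, and Ngp, Gzma and Mpo had the smallest p-values. Their mean lay between 0.05 and 0.16 in R6/2 and between -0.03 and -0.00 in wild-type in M.C, and between -0.11 and -0.00 in R6/2 and between -0.09 and -0.01 in wild-type in Mith. The part of these cells in the members' values was not tested.

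Among the remaining lists, 6 of 9 oligodendrocyte markers fell (Ugt8a, Cldn11, Mal, Mobp, Cnp and Mag, median -0.35), where 2.55% of all probe sets were called. With the Actb covariate Ugt8a (adjusted p = 0.0332) and Mobp (0.0465) kept their calls, while Cldn11 (0.0727), Mal (0.102), Cnp (0.197) and Mag (0.260) lost theirs, and with no cohort term all 6 did. Cnp was lost after quantile normalization (0.109) and called in 6 of 14 fits with 1 array left out. Mag was lost after quantile normalization (0.196), as deposited (0.0712) and with trended and robust variances (0.0605), and was called in 4 of 14 such fits.

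Of 10 astrocyte markers 0 were called over both cohorts (median -0.14, smallest p in Slc1a3, Gja1 and Aqp4). In M.C, where 2.47% of all probe sets were called, 2 of the 10 fell: Gja1, a gap junction protein (-0.72 ± 0.11, adjusted p = 0.00868), and Slc1a3, a glutamate transporter (-0.56 ± 0.11, adjusted p = 0.0228). Over both cohorts Slc1a3 was at -0.39 (adjusted p = 0.0510) and was called under 7 of 9 other settings, with adjusted p between 0.0140 and 0.0494. Gja1 was at -0.48 (adjusted p = 0.0669) and was called with array weights (adjusted p = 0.0160) and with its probe sets averaged (0.00614). With 1 array left out, Slc1a3 was called in 3 of 14 fits (limma adjusted p up to 0.120) and Gja1 in 2 of 14 (up to 0.152). No call was made among 11 vessel markers (median -0.06; Kdr, Cdh5 and Vwf), 7 thalamic markers (median -0.27; Lef1, Tcf7l2 and Prkcd), 3 erythroid markers (median -0.01; Slc4a1, Alas2 and Hba-a1) and 3 choroid plexus markers (median -0.02; Kl, Ttr and Folr1). Tcf7l2 was at -0.27 by its brightest probe set, and was called lower with its probe sets averaged (-0.47, limma adjusted p = 0.0247). In Mith all 7 thalamic markers were below 0 (median -0.56), 5 of them with an unadjusted p under 0.05 (all probe sets 8.87%). Their mean there lay between -0.10 and 0.33 in R6/2 and between 0.35 and 0.97 in wild-type. In M.C the genotypes overlapped, from -0.44 to -0.11 in R6/2 and from -0.41 to -0.135 in wild-type. The part of this difference in the Mith values was not tested. The member genes, with 1 probe set each, had a median of -0.06, with 5 of 9 below 0 and 4 above.

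**Figure D5:**
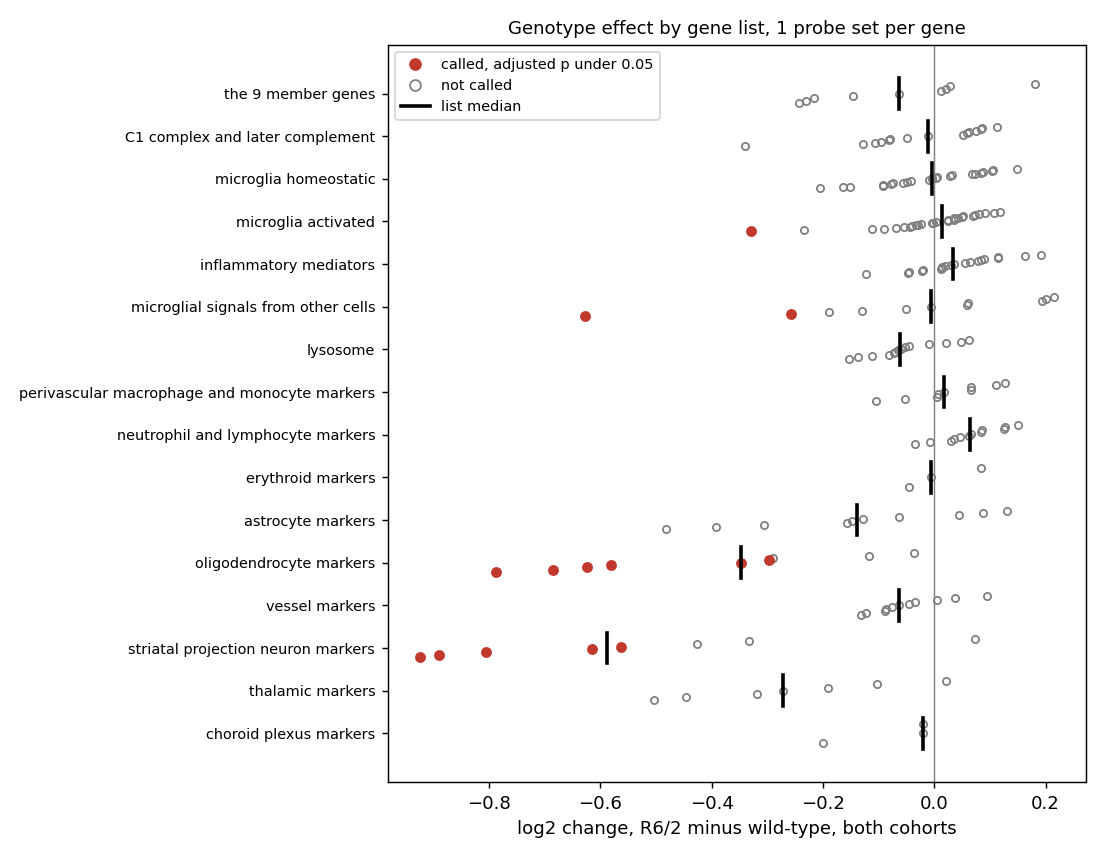
Log2 change (R6/2 minus wild-type, both cohorts) of each measured gene of each list, 1 probe set per gene; filled points were called and bars mark list medians. The microglial lists sit around 0, at -0.06 for the 9 member genes, while oligodendrocyte and projection neuron markers lie lower, at -0.35 and -0.59.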

How the data were processed

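Striatal RNA was measured on 14 Affymetrix mouse arrays, 7 per genotype. The deposited series table holds log2 probe set signals, a unit taken from their span (2.96 to 14.52); the steps by which the authors summarised and scaled the arrays were not given in the sources used here. Replicate numbers follow record order. Without the 64 control probe sets, 22626 were tested. Because array medians spanned 0.108 (limit 0.1), all arrays were set to one median. Symbols came from the platform annotation, updated by gene ID (20380 probe sets had 1 symbol, 691 several, 1555 none; 20351 matched).

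Tests used limma 3.58.1 (R 4.3.3, lmFit and eBayes, two-sided), with the cohort in the model, and a call needed a Benjamini-Hochberg adjusted p below 0.05 across all probe sets. Each cohort, the interaction and the cohort difference were fitted likewise, and the fits were tested on simulated data. The number of arrays limits the precision. The members and the 15 wider lists (183 of 207 genes measured) were chosen with earlier results of these data known. Outside member-by-probe-set values, each gene is stood for by its brightest probe set, one ending in _x_at being passed over where there is another. Named are all member probe sets, every called gene of a list or else the 3 of smallest p, and the 8 genes most like each of the 2 member patterns. Spi1, Trem2, Sirpa, Csf1, Il34, Cd200, Cd200r1, P2ry12, Tmem119 and Axl were added once their values had been seen. Alternatives are given with their effect in the closing section.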

Additional observations from a re-analysis of the deposited data

Results flagged for a closer look

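Among 56 groups of 4 or 7 arrays, 2 held an array far from the others, where chance gives about 1 in 20, or 2.8 groups. The count was thus not above chance. Ctss on R6/2 replicate 4 was at 8.60, while the other R6/2 arrays of M.C lay between 9.04 and 9.09. This array also had the lowest similarity to its cohort, and it was the lowest of all arrays for C1qb 1417063_at. Tyrobp on wild-type replicate 2 was at 7.63, while the other wild-type arrays of M.C lay between 7.82 and 7.85.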

How the results depend on the processing

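Over both cohorts 578 probe sets were called, against 100 with no cohort term, 1333 with array weights, 56 with the Actb covariate, 344 with 1 probe set per gene, and 280 to 879 with 1 array left out. Members called numbered 0, against 2 with array weights (Cx3cr1 1450019_at at -0.41, limma adjusted p = 0.0161, and Cd68 at -0.23, adjusted p = 0.0240), 1 with probe sets averaged per gene (Cd68, adjusted p = 0.0426), and 0 to 1 with 1 array left out (Cx3cr1 without R6/2 replicate 4, Cd68 without R6/2 replicate 5 or wild-type replicate 6). In M.C, 558 probe sets were called, against 371 after quantile normalization and 242 to 962 with 1 array left out. The M.C member count of 1 was 0 on values as deposited and 0 to 1 with 1 array left out. In Mith the count of 0 was 5 in the 4-group fit and 0 to 13 with 1 array left out, and for the interaction it was 0 to 7. Cohort calls ranged from 5995 to 7708, and members among them from 2 to 3. The cause of these moves was not tested.

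The values whose sign turned were not called in the fits reported above; most lay near 0, but Ttr was at -0.20 and the cohort difference of Csf1r 1419872_at at -0.14. Over both cohorts, after quantile normalization C1qb 1434366_x_at was at 0.0304 and Csf1r 1423593_a_at at 0.0214. As deposited, C1qb 1434366_x_at was at 0.0179, C1qb 1437726_x_at at 0.0044, Csf1r 1423593_a_at at 0.0072 and Hba-a1 at 0.0118. With array weights, Csf1r 1419872_at was at -0.0055, Aif1 at -0.0287, Hba-a1 at 0.0277 and Kl at 0.0007. With the Actb covariate, C1qb 1434366_x_at was at 0.0805, C1qb 1437726_x_at at 0.0918, Csf1r 1423593_a_at at 0.0371, Ctss at -0.0398, Aif1 at -0.1743, Folr1 at 0.0535 and Kl at 0.0357. In M.C, C1qb 1434366_x_at was at 0.0576, Csf1r 1419872_at at 0.1206 and Csf1r 1419873_s_at at 0.0783 after quantile normalization. As deposited, C1qb 1434366_x_at was at 0.0297, Csf1r 1419873_s_at at 0.0103 and Aif1 at 0.0022 in M.C. In Mith, C1qb 1434366_x_at was at -0.0060 after quantile normalization. The cohort difference of Csf1r 1419872_at was then 0.0514.

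With 1 array left out, values over both cohorts ran from -0.0316 to 0.0247 for C1qb 1434366_x_at, -0.0483 to 0.0382 for C1qb 1437726_x_at, -0.0157 to 0.0588 for Csf1r 1419872_at, -0.0045 to 0.0387 for Csf1r 1419873_s_at and -0.0343 to 0.0184 for Csf1r 1423593_a_at. They ran from -0.0365 to 0.092 for Ctss, -0.0684 to 0.0681 for Aif1, -0.0884 to 0.059 for Folr1, -0.0233 to 0.0353 for Hba-a1 and -0.6761 to 0.1563 for Ttr. In M.C they ran from -0.035 to 0.0461 for C1qb 1434366_x_at, -0.0687 to 0.0109 for Csf1r 1419872_at, -0.2108 to 0.0301 for Ctss and -0.0907 to 0.0472 for Aif1. In Mith they ran from -0.1561 to 0.0577 for C1qb 1417063_at, -0.0828 to 0.0603 for C1qb 1434366_x_at, -0.0802 to 0.1322 for Cx3cr1 1450020_at and -0.1352 to 0.2288 for Aif1. Signal near background limits C1qb 1437726_x_at, and 3 or 4 arrays per genotype limit each cohort.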

Other observations

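P2ry12, the purinergic receptor of resting microglia, leaned apart by cohort without passing. It had 7.44, 7.87, 7.64 and 7.65 in R6/2 and 7.87, 7.89, 8.22 and 8.16 in wild-type in M.C, and 7.85, 7.90 and 7.98 in R6/2 against 7.83, 7.66 and 7.76 in wild-type in Mith. R6/2 arrays lay below the wild-type arrays in M.C and above them in Mith, without overlap in either. In M.C the nearest arrays stood at 7.867 in R6/2 and 7.874 in wild-type. Of all probe sets, 11.2% had no overlap in M.C and 12.9% had none in Mith, in one direction or the other. The changes were -0.39 ± 0.11 in M.C (limma adjusted p = 0.0885) and 0.17 ± 0.09 in Mith (adjusted p = 0.624), and the interaction was -0.55 ± 0.15 (adjusted p = 0.300).

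Tmem119, a membrane protein of resident microglia, was at -0.06 ± 0.06. Axl, a receptor kinase that helps clear dying cells, was at -0.23 ± 0.06 over both cohorts (adjusted p = 0.0586), and its cohorts gave -0.25 (M.C) and -0.21 (Mith).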
